A study of Mus musculus with 11 samples.

Results

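The BH3-only genes, the death-promoting branch of the BCL-2 family, were examined in KP1 cells 24 h after a single dose of 5 Gy. The 8 genes were chosen by name, with earlier results of these data known: Bcl2l11 (encoding BIM), Bbc3 (PUMA), Bid, Bad, Bmf, Bik, Pmaip1 (NOXA) and Hrk. They are 8 of the 35084 gene symbols in the data, of which 20526 had at least 1 read in some library. KP1 is a mouse small cell lung cancer (SCLC) cell line, mutant for Rb and p53 in every sample and grown in suspension, and a single cell line stands for the tumour type here. Bulk RNA sequencing covered 2 untreated control libraries (replicates 2 and 3) and 3 irradiated libraries (replicates 1, 2 and 3). The labels do not say whether replicates were separate cultures, so p-values measure the spread between these libraries, which may be technical.

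BH3-only proteins carry a single short helix, the BH3 domain, with which they bind other members of the BCL-2 family. Survival members such as BCL-2, BCL-XL and MCL-1 hold BH3-only proteins and the pore-forming proteins BAX and BAK in check, and when BH3-only proteins outnumber the free survival proteins, BAX and BAK open the outer mitochondrial membrane, cytochrome c escapes and caspases are activated. BIM, PUMA and the cleaved form of BID bind all major survival proteins and can also engage BAX and BAK directly, whereas BAD, BMF, BIK, NOXA and HRK each bind a narrower set of survival proteins. After DNA damage, Bbc3 and Pmaip1 are textbook targets of p53, which these cells lack in functional form.

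Of the 8 BH3-only genes, 5 were higher in irradiated cells (Bmf, Bbc3, Bad, Bid and Bik) and 0 were lower at an adjusted p under 0.05 in edgeR's quasi-likelihood test. Bmf, with a log2 fold change of 1.51, and Bik, which was almost absent from control cells, also passed a log2 fold change of 1.5. Among all 14099 genes tested, 12.7% were called higher, 13% lower, and 1.66% higher with a log2 fold change above 1.5. In normalised reads, Hrk and Pmaip1 lay above both controls in every irradiated library without passing the threshold, and Bcl2l11 showed no separation. All 8 genes passed the filter on low counts, Bik through the irradiated libraries alone. The call of Bik thus rests on a filter passed only in the group where it was high. Under a filter of 1 CPM in 2 libraries Bik was not tested. That fit called 4 BH3-only genes, beside 1743 of all 12655 genes higher. In the fit of 14099 genes, the median log2 fold change of the 8 genes was 1.18, beside 0.02 over all genes tested. Because the genes were chosen with earlier results known, these contrasts with all genes are descriptions and not tests of the group.

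The libraries held 21185956 to 31036317 estimated reads. Neuroendocrine markers of SCLC were present throughout, with Insm1 at 263 to 502, Chga at 278 to 475 and Dll3 at 48.1 to 63.5 TPM (TPM is an abundance corrected for transcript length and scaled to the same total in each library). Of the 6 markers, 1 was higher in irradiated cells (Syp, log2 fold change 0.64, edgeR adjusted p = 0.0313) and 1 lower (Ncam1, 354 and 153 TPM in control against 78.0, 46.7 and 84.0, log2 fold change -1.20, edgeR adjusted p = 0.0224). With the offset for transcript length described below, neither Syp (0.52, edgeR adjusted p = 0.0853) nor Ncam1 (-0.68, edgeR adjusted p = 0.128) was called. Of the fibroblast markers, Dcn and Col1a2 stayed at or under 0.0564 TPM, Col1a1 reached 13.5 TPM in control replicate 2 and at most 0.104 in the other libraries, and Pdgfra lay between 36.6 and 56.7 TPM. In reads, Col1a1 had only 33 in control replicate 2 and 2 to 10 in the other libraries. The 4 macrophage markers summed to 4.55 and 6.78 TPM in control and to 1.18 to 1.62 TPM in irradiated libraries, nearly all of it from Cd68, and Csf1r and Adgre1 were at 0 in both controls. The part of these markers in the results was not tested, and in bulk samples fewer cells of a type and less RNA per cell cannot be told apart. The paper describes the bulk samples as mouse SCLC cells irradiated in culture, not as tumour tissue. Reads were still assigned to Trp53 (97 and 179 in control, 155 to 227 in irradiated libraries) and to Rb1 (2123 to 3944), and as the sources used here do not say which exons are lost, they do not check the alleles. The typical length of the transcripts that were read moved with irradiation: averaged over reads, it came to 5463 and 4729 bases for the controls but to 3625 to 3998 bases for irradiated cells. On the TPM scale, where the median gene shifted by -0.30 (log2(TPM + 0.1)), limma called 732 genes higher and 2648 lower, whereas edgeR on reads called 1795 higher and 1833 lower.

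**Figure D1:**
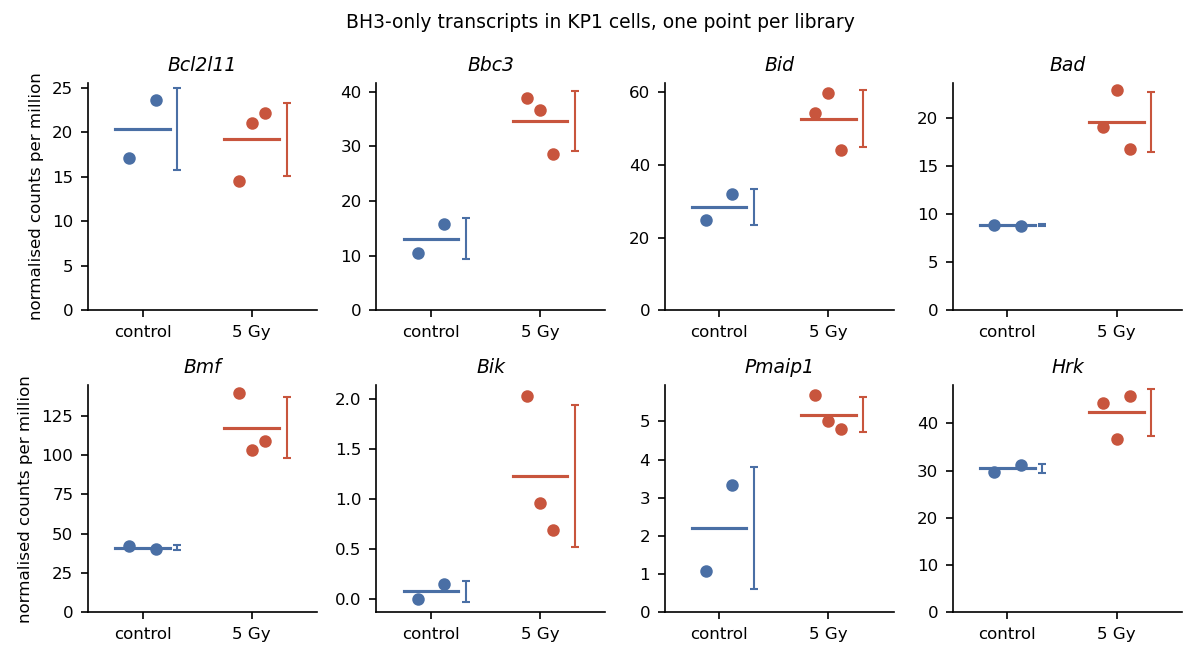
TMM-normalised CPM of each BH3-only gene on the y axis, in 2 control and 3 irradiated (5 Gy) KP1 libraries on the x axis. Points are libraries, horizontal lines group means and whiskers the SD; in 7 of 8 panels every irradiated point lies above both controls, Bcl2l11 being the exception.

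Bbc3 encodes PUMA, which binds all survival proteins. It lies on chromosome 7 (GRCm38, chr7:16308393-16318205, plus strand). It had 298 and 421 reads in the controls and 976, 802 and 784 in the irradiated libraries. After TMM normalisation these were 10.4 and 15.8 CPM (reads scaled to a common library size) against 38.9, 36.6 and 28.5. Every irradiated library was above both controls, and the group means of 13.1 ± 3.79 (SD, n = 2) and 34.7 ± 5.42 CPM (SD, n = 3) differed 2.64 times. The log2 fold change was 1.40 (95% interval 0.85 to 1.95, edgeR adjusted p = 0.00942). On the length-corrected scale Bbc3 was at 12.4 and 33.4 TPM in control and 67.6, 55.6 and 54.8 TPM in irradiated libraries, so that the controls differed from each other more in TPM than in reads.

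Bid encodes a BH3-only protein that caspase-8 cleaves to its active form, linking death receptors to mitochondria. The gene is on the minus strand of chromosome 6 (chr6:120891930-120916853). Control libraries held 709 and 851 reads of Bid, and irradiated libraries 1366, 1308 and 1211. Normalised levels were 24.8 and 31.9 CPM in control and 54.4, 59.7 and 44.1 CPM in irradiated libraries, with no overlap. Bid rose with a log2 fold change of 0.89 (95% interval 0.45 to 1.34, edgeR adjusted p = 0.0157), and the means differed 1.86 times. In TPM the levels were 26.6 and 33.5 against 44.3, 45.7 and 37.4. Bid shares 628 exonic bases with Bcl2l13 on the opposite strand. Bcl2l13 itself had 4290 and 2920 reads in control and 2266 to 3308 in irradiated libraries, and since strand handling is not given in the sources used here, reads of that overlap cannot be told apart.

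Bcl2l11 encodes BIM, a potent killer that is kept low by growth factor signalling and sits on dynein motors in some isoforms. It lies at chr2:128126038-128162547 on the plus strand. Reads of Bcl2l11 numbered 490 and 631 in control and 365, 460 and 608 in irradiated libraries. In CPM this was 17.2 and 23.7 against 14.5, 21 and 22.1. The groups overlapped, and the log2 fold change of -0.09 (95% interval -0.65 to 0.47, edgeR adjusted p = 0.821) was within the spread between libraries. Counting protein-coding transcripts alone, Bcl2l11 was at 7.60 and 10.4 TPM in control and at 4.33, 6.72 and 7.52 TPM in irradiated libraries, which lay below both controls on this scale. On reads of the same transcripts, the log2 fold change was -0.22 and not called (edgeR adjusted p = 0.552).

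Bmf encodes a BH3-only protein that binds BCL-2 and BCL-XL and is known for its link to the actin cytoskeleton and cell detachment. It is on the minus strand of chromosome 2 (chr2:118528757-118549687). Bmf had 1207 and 1066 reads in control and 3499, 2259 and 2995 reads in irradiated cells, the most reads of any of the 8 genes in every library. Normalised, these were 42.3 and 40.0 CPM against 139, 103 and 109 CPM. The controls were nearly equal (41.1 ± 1.59, SD, n = 2) and far below every irradiated library (117 ± 19.4, SD, n = 3), a ratio of 2.85. Bmf gave the smallest adjusted p of the 8 genes, 0.00814 in edgeR, with a log2 fold change of 1.51 (95% interval 1.10 to 1.92).

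The TPM of Bmf was less even, at 47.0 and 19.6 in control and 68.3, 62.0 and 56.9 in irradiated libraries. In control replicate 2, the short processed transcripts Bmf-207 (361 bases) and Bmf-203 (374 bases) held 24.2 and 19.1 reads and made up 17.3 and 12.2 TPM. With protein-coding transcripts alone, Bmf stood at 17.1 and 17.0 TPM in control and 47.9, 33.0 and 38.2 TPM in irradiated libraries. The means on that scale differed 2.34 times, and limma on log2(TPM + 0.1) over all transcripts gave Bmf an adjusted p of 0.0641.

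Bad encodes a BH3-only protein that 14-3-3 proteins hold in the cytoplasm once survival kinases have phosphorylated it. It lies at chr19:6941861-6951899 on the plus strand. Bad had 254 and 234 reads in the controls and 477, 501 and 459 in the irradiated libraries. Its CPM were 8.89 and 8.78 against 19.0, 22.9 and 16.7, again without overlap. Bad rose with a log2 fold change of 1.14 (95% interval 0.64 to 1.64, edgeR adjusted p = 0.0114), a ratio of means of 2.21. Bad shares 524 exonic bases with Gpr137 on the opposite strand, whose own estimated reads were 295 and 256 in control and 299 to 327 in irradiated libraries.

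Bik, which encodes the founding BH3-only protein, one that resides largely at the endoplasmic reticulum, lies at chr15:83526862-83544634 on the plus strand. Bik had 0 and 4 reads in the controls and 51, 21 and 19 in the irradiated libraries. Pooled over libraries, 91 irradiated against 4 control reads give a depth-corrected ratio of 17.9 with an exact 95% interval of 6.77 to 67.2, which covers counting error only. The fitted log2 fold change of 3.98 (95% interval 1.36 to 6.59, edgeR adjusted p = 0.0371) was 3.01 without control replicate 2 and 7.99 without control replicate 3, which leaves a control with 0 reads. Because Bik entered the test through the irradiated libraries alone, its p-value and call are a description and no support for a rise. Even in irradiated cells Bik stayed between 1.77 and 4.54 TPM, and irradiated replicate 1 held more of it than the other two.

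Pmaip1 encodes NOXA, which binds MCL-1. The gene is on the plus strand of chromosome 18. Estimated reads were 31.4 and 88.9 in control and 143, 110 and 132 in irradiated libraries, which are not whole numbers although a single transcript is annotated. Its CPM were 1.09 and 3.34 in control and 5.69, 5.02 and 4.81 in irradiated libraries. All irradiated libraries exceeded both controls, but the controls lay far apart (2.21 ± 1.59, SD, n = 2), and the log2 fold change of 1.23 (95% interval 0.12 to 2.33) had an adjusted p of 0.0916 in edgeR. It was 0.65 without control replicate 2 and 2.27 without control replicate 3.

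Hrk encodes a BH3-only protein best known in neurons, where it binds BCL-XL. It lies at chr5:118164648-118189478 on the plus strand. Control libraries held 851 and 830 reads and irradiated libraries 1113, 804 and 1258. After normalisation every irradiated library (44.3, 36.7 and 45.8 CPM) was above both controls (29.8 and 31.1 CPM). The log2 fold change was 0.47 (95% interval 0.10 to 0.85, edgeR adjusted p = 0.0657). In TPM the groups overlapped, with 10.6 and 11.5 in control and 13.1, 10.3 and 14.3 in irradiated libraries.

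**Figure D2:**
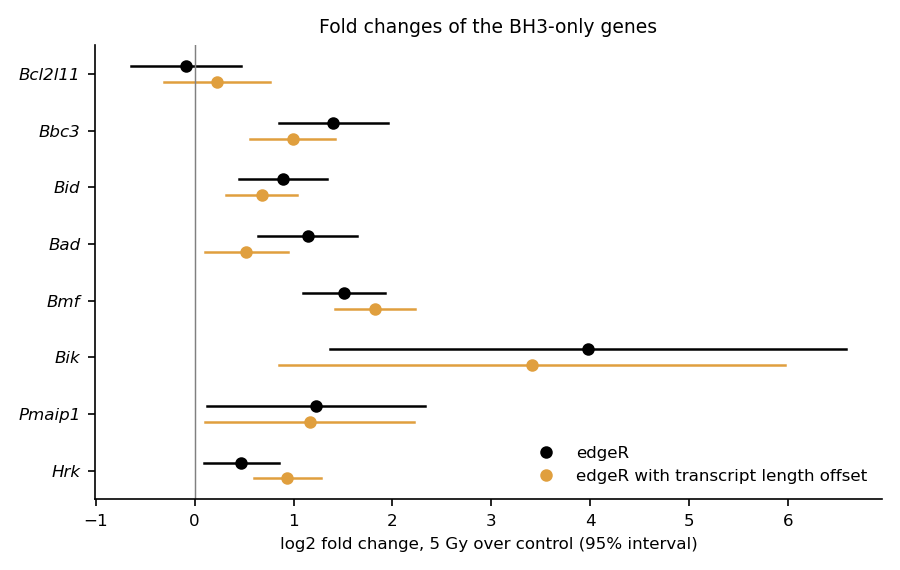
Log2 fold change of irradiated over control KP1 cells (x axis) for each BH3-only gene (y axis), from edgeR without and with an offset for transcript length. Points are estimates and lines 95% intervals; the estimate of Bmf is 1.51 without and 1.82 with the offset, and that of Bad falls from 1.14 to 0.52.

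In all, 7 of the 8 genes had every irradiated library above both controls in CPM and 0 had every one below. Among all genes tested, 30.1% lay above and 29.3% below in this way. Leaving out control replicate 2 left Bmf as the only BH3-only gene called (log2 fold change 1.57 without it), beside 0.657% of all genes called higher, with edgeR adjusted p-values of 0.0538 for Bbc3, 0.0597 for Bad, 0.0983 for Bid and 0.130 for Bik. Bik was also not called without irradiated replicate 1 (edgeR adjusted p = 0.0939) or 2 (0.0695), nor Bid without irradiated replicate 2 (0.0507), and Pmaip1 was called without control replicate 3 (0.0111).

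The longer a transcript, the lower it stood after irradiation across the whole transcriptome, and the members differ in length. Among the tested genes in the lowest of 4 equal bins of length (up to 1854 bases), 35.1% were called higher, with a median log2 fold change of 0.62. In the highest bin (4303 bases and more) 0.511% were called higher and 38.3% lower, with a median of -0.54. Bik (966 bases, averaged over its transcripts by reads), Bad (1147) and Bbc3 (1653) belong to the lowest bin, Bid (2181) and Pmaip1 (2646) to the next, and Bmf (4491), Bcl2l11 (4533) and Hrk (5382) to the highest.

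**Figure D3:**
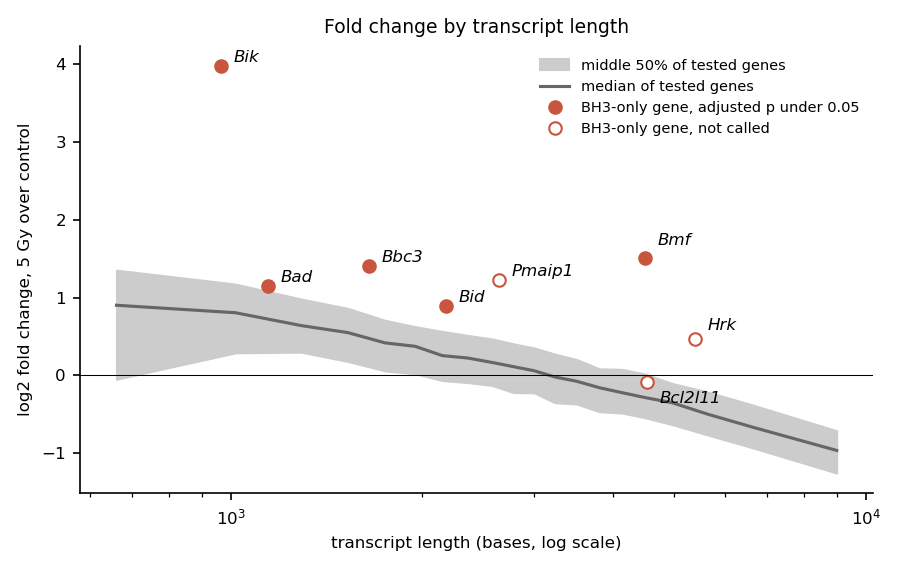
Log2 fold change of irradiated over control cells (y axis) against transcript length in bases (x axis, log scale). The line and band are the median and middle 50% of tested genes in 20 length bins and the circles the 8 BH3-only genes, filled where the adjusted p was under 0.05. Bmf, Hrk, Bbc3, Bid, Bik and Pmaip1 lie above the band at their length, Bad at its upper edge and Bcl2l11 within it.

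With an offset that removes the trend with length in each library, 3 of the 8 genes were called higher, beside 2.45% of all genes tested. Bmf then had a log2 fold change of 1.82 (SE 0.18, edgeR adjusted p = 0.0184) and Bbc3 one of 0.99 (SE 0.19, edgeR adjusted p = 0.0369). Hrk, which had missed the threshold before, reached 0.94 (SE 0.15, edgeR adjusted p = 0.0293). Bad dropped to 0.52 (edgeR adjusted p = 0.115), Bid to 0.68 (edgeR adjusted p = 0.0522) and Bik to 3.41 (edgeR adjusted p = 0.102), and none of these 3 was called. Bcl2l11 moved to 0.23 (edgeR adjusted p = 0.564). The offset removes any such trend, whether it arose in the cells or in the handling of the RNA, and these cannot be told apart here. An offset for GC content left 5 of the 8 genes called, beside 12.1% of all genes tested, although Bbc3, whose transcripts hold 65.9% G and C, fell to 0.90.

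Per length, the order of the BH3-only genes depended on which transcripts were counted. Over all transcripts in control cells, Bmf (33.3 TPM on average), Bid (30.1), Bbc3 (22.9) and Bad (20.2) came first, and the ranges of neighbours in this order overlapped. Hrk (11 TPM) and Bcl2l11 (10.2) followed, overlapping each other but lying below Bad. Pmaip1 (1.75 TPM) and Bik (0.214) were the lowest and did not overlap. In irradiated cells Bmf (62.4 TPM) and Bbc3 (59.3) overlapped each other and lay above Bid (42.4) and Bad (37.7), while Hrk (12.6) and Bcl2l11 (9.06) stayed in the middle and the ranges of Pmaip1 (3.32) and Bik (2.80) now overlapped. Over protein-coding transcripts alone, Bid was the highest in control cells (27.4 TPM), and Bmf (17.0 TPM) lay below Bad without overlap. In irradiated cells Bbc3 (54.3 TPM) then stood above Bid (42.0), and Bid, Bmf (39.7) and Bad (37.7) overlapped as neighbours. This place of Bbc3 rested on the short Bbc3-202 (485 bases). It held at most 11.6% of Bbc3 reads but 26.0, 23.6 and 26.0 TPM in irradiated libraries. The main transcript Bbc3-201 alone was at 31.3, 31.4 and 24.6 TPM there, below Bid-201 at 43.2, 45.1 and 36.7 TPM.

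The 8 genes together amounted to 124 and 136 TPM in control libraries and 245, 231 and 213 TPM in irradiated libraries, an increase of the mean by a factor of 1.77. Bbc3 made up 10.0% and 24.6% of this sum in control and 24.1% to 27.6% in irradiated libraries. Of the TPM of Bbc3, the short Bbc3-202 held 0% and 21.6% in control and 38.5% to 47.4% in irradiated libraries. Bcl2l11 made up 6.44% and 9.14% of the sum in control and 2.84% to 5.20% in irradiated libraries, and Hrk 8.59% and 8.44% against 4.47% to 6.71%. The shares of Bcl2l11 and Hrk did not overlap between the groups. Nor did those of Bid (21.5% and 24.7% in control, 17.6% to 19.8% in irradiated libraries). Those of Bik (0% and 0.315% in control, 0.830% to 1.85% in irradiated libraries) did not overlap either. The share of Bid was lower although its TPM was higher, since the shares are parts of the same sum. The shares of Bmf (38.0% and 14.4% in control, 26.7% to 27.8% in irradiated libraries) overlapped.

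**Figure D4:**
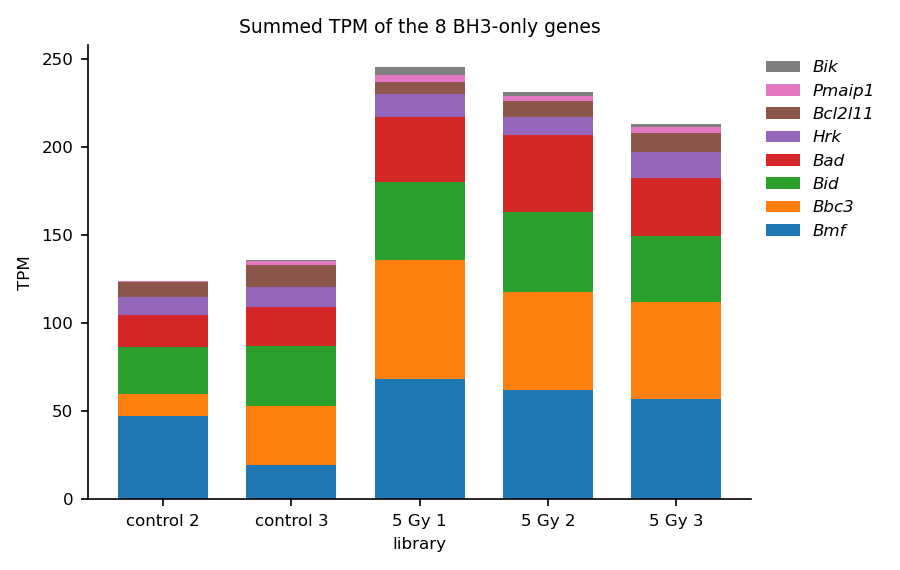
Stacked TPM (y axis) of the 8 BH3-only genes in each control and irradiated (5 Gy) library (x axis), 1 bar per library. The bars reach 124 and 136 TPM in control and 213 to 245 TPM in irradiated libraries, and Bmf, Bbc3, Bid and Bad fill most of each.

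A single transcript carried most reads of nearly all members. Bmf-201 (4642 bases) held 93.7% to 98.6% of the reads of Bmf, and Bid-201 98.7% to 99.8% of those of Bid. Bbc3-201 held all 298 Bbc3 reads in control replicate 2 and 364 of those in control replicate 3, and 793, 729 and 649 reads in irradiated libraries. The shorter coding form Bbc3-202 had 0 and 20.7 reads in control and 83.3, 67.7 and 90.6 in irradiated libraries. Bad was split between Bad-202 (82.6 and 172 reads in control, 300, 336 and 237 in irradiated libraries) and Bad-201 (159 and 51.5 against 163, 147 and 193), and the split differed between the controls. For Bcl2l11, Bcl2l11-205 held 63.2% to 87.1% of reads, while Bcl2l11-203 held 176 reads in control replicate 2 and 0 in control replicate 3. Of 37 member transcripts, 31 had a read, 19 were tested and 0 were called in edgeR, where the smallest adjusted p of all 40716 transcripts was 0.0893. At an unadjusted p under 0.05, 5 member transcripts were higher and 0 lower, beside 12.5% and 8.31% of all transcripts tested.

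The 250 bases before the RefSeq start sites (GRCm38.p6) are shown for the members called higher that have a listed promoter. Bases within an annotated exon were left out. Capitals mark matches on either strand to the hypoxia response cores ACGTG and GCGTG, the FOXO core GTAAACA, the GC box GGGCGG or the p53 half-site consensus. In the same order, these occur in 16.6%, 28.2%, 3.17%, 32.7% and 7.13% of the 250-base windows of all 32851 listed promoters. The windows are chr7:16309333-16309582 (plus strand) for Bbc3, whose start lies 33 bases before that of Bbc3-201, chr6:120916854-120917074 (minus) for Bid, chr19:6941611-6941860 (plus) for Bad at the start of Bad-201, and chr2:118549688-118549936 (minus) for Bmf at the start of Bmf-201. Bbc3-202 and the little-used internal start of Bmf have windows of their own, chr7:16310181-16310430 (plus) and chr2:118544588-118544837 (minus).
Bbc3: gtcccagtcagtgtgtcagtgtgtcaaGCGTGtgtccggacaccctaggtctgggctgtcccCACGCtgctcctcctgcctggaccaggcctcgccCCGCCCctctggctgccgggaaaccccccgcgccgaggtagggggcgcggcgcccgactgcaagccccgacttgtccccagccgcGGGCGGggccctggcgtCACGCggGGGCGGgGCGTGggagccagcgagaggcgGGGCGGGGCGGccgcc
Bbc3, start of Bbc3-202: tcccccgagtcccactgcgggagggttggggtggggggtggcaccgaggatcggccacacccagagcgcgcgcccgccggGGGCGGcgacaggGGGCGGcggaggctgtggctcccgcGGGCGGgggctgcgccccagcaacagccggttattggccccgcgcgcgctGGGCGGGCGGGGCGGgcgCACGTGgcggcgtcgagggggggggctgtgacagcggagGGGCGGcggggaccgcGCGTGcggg
Bid: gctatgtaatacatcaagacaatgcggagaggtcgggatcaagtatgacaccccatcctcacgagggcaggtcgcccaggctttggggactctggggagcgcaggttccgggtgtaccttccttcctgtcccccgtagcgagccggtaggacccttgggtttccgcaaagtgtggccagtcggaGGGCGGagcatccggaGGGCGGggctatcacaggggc
Bad: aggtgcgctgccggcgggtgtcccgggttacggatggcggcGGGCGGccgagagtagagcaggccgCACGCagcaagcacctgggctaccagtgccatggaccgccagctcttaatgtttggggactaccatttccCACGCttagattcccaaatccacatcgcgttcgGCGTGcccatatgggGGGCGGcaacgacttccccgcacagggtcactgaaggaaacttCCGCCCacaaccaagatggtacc
Bmf: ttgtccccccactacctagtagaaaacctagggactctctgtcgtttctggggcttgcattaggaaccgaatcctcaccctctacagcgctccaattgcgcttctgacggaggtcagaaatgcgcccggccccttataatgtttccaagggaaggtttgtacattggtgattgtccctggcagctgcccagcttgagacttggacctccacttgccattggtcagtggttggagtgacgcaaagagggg
Bmf, internal start: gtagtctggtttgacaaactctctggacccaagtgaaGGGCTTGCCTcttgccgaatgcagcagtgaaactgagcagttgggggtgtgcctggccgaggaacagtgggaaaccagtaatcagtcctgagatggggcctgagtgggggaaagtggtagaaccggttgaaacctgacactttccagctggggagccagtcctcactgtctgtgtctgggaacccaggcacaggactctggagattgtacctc

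The Bbc3 window held 5 GC boxes, a pair of them overlapping, and 4 GCGTG cores, and 76.4% of its bases were G or C. At the start of Bbc3-202 there were 7 GC boxes, 1 GCGTG core and 1 palindrome that holds ACGTG on both strands. Another Bbc3 window, not shown, held 1 FOXO core, 1 GCGTG core and 1 GC box. The Bad window held 3 GC boxes and 3 GCGTG cores, and that of Bid 3 GC boxes, 1 of which runs into the exonic part not shown. At the start of Bmf-201, used by nearly all Bmf reads, none of the 5 motifs was found and 54% of bases were G or C, near the median of 52.4% over all windows. The p53 half-site in the internal Bmf window begins 213 bases before that start, and Bmf-205, the transcript that begins there, had at most 6.02 reads in any library. Another Bmf window, not shown, held none of the motifs, and the second window of Bad lies almost wholly in exons. The windows of Bcl2l11 and Hrk, which were not called, are not shown but held matches too. At the main start of Bcl2l11 there were 3 GC boxes, 3 GCGTG cores and 1 FOXO core, and its other window held 2 GC boxes. That of Hrk held 2 GC boxes. The motifs are thus not particular to the members called higher. A match is a description of the letters and does not show that a factor was bound.

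The partners of the BH3-only proteins were described from fixed gene lists. Of the 4 tested survival genes, 0 were higher and 1, Bcl2, was lower, at 13.9 and 8.54 TPM in control and 3.41, 3.77 and 4.78 TPM in irradiated libraries (log2 fold change -1.23, SE 0.25, edgeR adjusted p = 0.0129). Bcl2 has a long transcript (7161 bases), and with the length offset its log2 fold change was -0.50 (edgeR adjusted p = 0.142). Bcl2l1, which encodes BCL-XL and was the most abundant survival gene at 107 TPM in both controls, had 118, 97.7 and 126 TPM after irradiation (log2 fold change 0.40, edgeR adjusted p = 0.0731). Mcl1, the partner of NOXA, had a log2 fold change of 0.13 (edgeR adjusted p = 0.515), and the 3 Bcl2a1 genes and Bcl2l10 were listed at 0.

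Of the 3 pore-forming genes, Bax and Bok were higher and Bak1 was not called. Bax stood at 88.8 and 117 TPM in control and 176, 250 and 147 TPM in irradiated libraries (log2 fold change 1.18, SE 0.27, edgeR adjusted p = 0.0181). Bok had a log2 fold change of 1.03 (SE 0.18, edgeR adjusted p = 0.00999) and Bak1 one of 0.26 (edgeR adjusted p = 0.291). Bax (899 bases) and Bok (1404 bases) are short, and with the length offset their log2 fold changes were both 0.50, with edgeR adjusted p-values of 0.114 and 0.0580.

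Downstream, 2 of the 8 genes of the caspase cascade were higher, 1 was lower and 5 were not called. Cycs, encoding cytochrome c, rose by a log2 fold change of 0.72 and Casp9 by 0.53, while Apaf1, the scaffold that joins them, fell by 0.66 on the log2 scale with an adjusted p of 0.0491 in edgeR. Of 4 tested genes among the inhibitors of apoptosis and the proteins that neutralise them, the neutralising Htra2 (log2 fold change 1.02) and Diablo (0.54) were higher and 0 were lower. With the length offset, Casp9 was the only gene of these lists still called (0.71, edgeR adjusted p = 0.0366).

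Among 6 tested death receptor genes, whose signal reaches BID, 2 were higher and 1 lower. Tradd had a log2 fold change of 1.01 and Tnfrsf1a, the most abundant at 111 TPM in control, one of 0.54. Cflar, the caspase-8 inhibitor, had one of -0.72. Casp8 itself, which cleaves BID, was at 0.231 to 0.546 TPM in all libraries, and Fas was listed at 0. Of 10 partners and kinases, Ywhaq, a 14-3-3 protein of the kind that binds BAD, was higher (log2 fold change 0.73, edgeR adjusted p = 0.0153) and Huwe1, a very long transcript (13719 bases) for a ligase of MCL-1, was lower (-1.74, edgeR adjusted p = 0.00902), while Ywhae, the most abundant at 1029 TPM in control, was not called. With the length offset, 0 genes of these lists were called.

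Of 9 tested transcription factors known to act on BH3-only genes, Ddit3 (CHOP) was higher (log2 fold change 0.83, edgeR adjusted p = 0.0445; 0.17 with the length offset) and 8 were not called. Atf4 was the most abundant, at 126 and 212 TPM in control and 170 to 265 TPM in irradiated libraries. Trp73, the p53 relative, had 22.2 and 23.9 TPM in control and 8.62 to 16.1 TPM in irradiated libraries, with a log2 fold change of -0.17 (edgeR adjusted p = 0.628). Of 8 further p53 target genes, 3 were higher (Trp53inp1 with a log2 fold change of 0.82, Cdkn1a with 1.12 and Phlda3 with 1.35), 1 was lower (Zmat3, -0.56) and 4 were not called, among them Mdm2 at 0.003. Trp53inp1, itself long (5369 bases), was the only one called with the length offset (1.28, edgeR adjusted p = 0.0285).

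**Figure D5:**
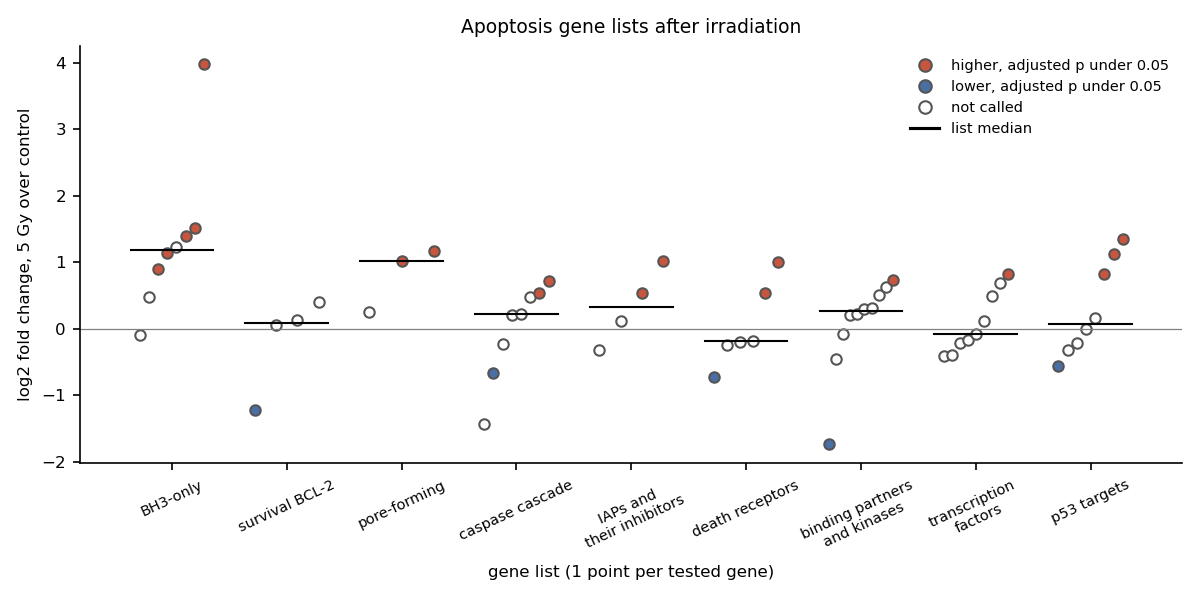
Log2 fold change of irradiated over control cells (y axis) for every tested gene of the BH3-only list and 8 further apoptosis lists (x axis). Points are genes, coloured where the edgeR adjusted p was under 0.05, and bars list medians, which are 1.18 for the BH3-only genes, 0.09 for the survival genes and 1.03 for the pore-forming genes. All values are without the length offset.

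The median log2 fold changes were 0.09 for the survival genes, 1.03 for the pore-forming genes, 0.22 for the caspase cascade, 0.33 for inhibitors of apoptosis and their antagonists, -0.19 for death receptor genes, 0.26 for partners and kinases, -0.07 for transcription factors and 0.08 for p53 targets. These medians are without the length offset, and the lists differ in transcript length. With the offset, the pore-forming Bax, Bok and Bak1 were at 0.50, 0.50 and 0.04.

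Likeness of pattern was measured as the root mean square difference in log2 CPM, each gene centred over the 5 libraries, among the 52 tested genes of these lists, which leave out the BH3-only genes themselves. Bbc3 was closest to Cdkn1a (0.15), then Tradd (0.23) and Phlda3 (0.24). Bid was closest to Bok (0.08), Ddit3 (0.08) and Tradd (0.10), and Bad to Bok (0.10), Htra2 (0.177) and Bax (0.185). For Bmf the closest were Bok (0.33), Cdkn1a (0.34) and Trp53inp1 (0.37), and for Bik they were Phlda3 (1.02), Cdkn1a (1.06) and Bax (1.19). Among the BH3-only genes, Bmf and Bbc3 lay nearest to each other (0.26), as did Bid and Bad (0.172), and Bik lay nearest to Pmaip1 (0.953). With 5 libraries in 2 groups, any genes with a like fold change score as alike.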

How the data were processed

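The authors quantified reads with Salmon (0.8.2 per the submitters' processing notes) against mm10 and deposited, for each library, estimated counts of reads per transcript (expected counts, not scaled) and TPM. Strand handling is not given in the sources used here. Transcripts were matched to GENCODE M21 (112841 of 113116) and summed to gene symbols, and counts were rounded. The single-cell samples were not analysed here.

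Irradiated and control libraries were compared with edgeR 4.0.16 in R 4.3.3 (filterByExpr, TMM, quasi-likelihood test, Benjamini-Hochberg adjustment over all 14099 genes tested), with calls at an adjusted p under 0.05. Alternatives used DESeq2 1.42.0, limma 3.58.1 on log2(TPM + 0.1) and log2(TPM + 1), other normalisations and filters, offsets from splines (5 degrees of freedom) on length or GC content of transcripts, and each library left out. On simulated counts with 200 genes changed by 2 on the log2 scale, up or down, edgeR recovered 83.5% with 16 false calls (13819 genes). That change is larger than the fitted change of any member but Bik, so recovery at the members' sizes was not tested. With a simulated length trend, the same in every irradiated library, edgeR made 2084 false calls without the offset and 12 with it (13834 genes).

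The members and gene lists were chosen with earlier results of these data known. Named genes were the members, in each list up to 3 called genes a direction by smallest p and the gene highest in control TPM, and the nearest patterns; Mcl1, Bak1, Casp8, Fas and Trp73, and the survival genes listed at 0, were added once their values had been seen. With blastn 2.17.0, 0 of 8 main transcripts matched another gene at 95% identity over 100 bases or more. Promoters came from RefSeq. Results of 2 listed genes are not reported here. A 2 against 3 exact permutation test cannot go below p = 0.2, so none was used.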

Additional observations from a re-analysis of the deposited data

How the results depend on the processing

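Of the 8 BH3-only genes, 5 were called in the reported comparison. The count was 3 with the transcript length offset, 3 (Bbc3, Bad and Bik) with limma on log2(TPM + 0.1), 3 on log2(TPM + 1) and 2 with the fold threshold of 1.5 as well. It ranged from 1 to 6 when one library was left out, the lowest without control replicate 2. A fit with 1 control assumes that it varies like the irradiated libraries. DESeq2 called 7, adding Pmaip1 (adjusted p = 0.0459) and Hrk (adjusted p = 0.04996), and 4697 of all 14099 genes, 2406 of them higher. Of the same 14099 genes, limma called 732 higher and 2648 lower on log2(TPM + 0.1), and 702 higher and 2687 lower on log2(TPM + 1). The 3628 genes called in all became 604 with the length offset and 501 with the fold threshold, and 275 to 4245 when one library was left out. Of the member transcripts, 0 were called, as of all 40716 tested, and 3 without the filter on low counts, beside 1096 higher and 286 lower of all 71576. The fold change of Bmf stayed positive over all 20 alternatives (1.01 to 1.82), as did those of Bbc3 (0.86 to 1.75), Bid (0.49 to 1.10) and Bad (0.52 to 1.26), but they lost their calls in 2, 2, 7 and 4 of them, respectively. Bik lost its call in 7 of 19 and was not tested under a filter of 1 CPM in 2 libraries. Pmaip1 was called in 4 and Hrk in 3. The cause was not tested.

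Whether the numbers 2 and 3 shared by both groups pair libraries is not known. The difference between replicates 2 and 3 in control correlated at -0.202 with that in irradiated libraries across 14099 genes. A single difference in each group cannot decide whether the libraries were paired. With the replicate block, 3 members and 1073 genes were called, with the block and the length offset 1 and 110, and with the block and the GC offset 4 and 1729. The log2 fold change of Bcl2l11, not called in any fit, turned positive at 0.10 with the block, 0.40 with block and length offset, 0.17 with block and GC offset, 0.23 with the length offset and 0.18 with Salmon's effective lengths. It ranged from -0.28 to 0.18 with one library left out.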
